A study of Bos grunniens with 18 samples.

Results

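Activator protein 1 (AP-1) and early growth response transcripts were followed in whole blood of female yaks (*Bos grunniens*) across 3 reproductive stages. The 9 genes were *FOS*, *FOSB*, *FOSL2*, *JUN*, *JUNB*, *JUND*, *EGR1*, *ATF3* and *IER2*. They were found by symbol in the deposited table, where each had 1 row among 20607 genes. All 9 were among the 14508 genes that passed the low-count filter. They were picked with their levels in these libraries already known, and in particular with the wide scatter in pregnancy in view. Their levels and fold changes are therefore a description. No p-value is printed for them, only whether or how many passed a threshold.

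AP-1 is a dimeric transcription factor in which a Fos or an ATF protein pairs with a Jun protein through a leucine zipper. Most of these genes are immediate-early genes, meaning that they are transcribed within minutes of a stimulus from MAP kinases, calcium or cAMP, without new protein synthesis, and that many of their transcripts are short-lived. In blood they are known from the activation of neutrophils, monocytes and lymphocytes.

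The 18 libraries comprised 6 from anestrus (Y-A), 6 from estrus (Y-E) and 6 from pregnancy (Y-P), numbered 1 to 6 within each stage. The cows were adults aged 4 to 8 years, and the study tracked 6 cows through an estrus synchronised with a progesterone pessary, prostaglandin F2α and GnRH, followed by timed insemination. The day of gestation is not given in the sources used here, and no group carried a genetic change. All blood was drawn into EDTA tubes, lysed in TRIzol LS and frozen, so red cell precursors, platelets and all leukocytes contributed RNA, and in such bulk samples fewer cells of a type and less RNA per cell cannot be told apart.

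Libraries held 30247267 to 48401076 counts, with normalisation factors from 0.871 to 1.12. Blood markers were present: *CSF3R* of neutrophils had at least 62896 counts and *CD3D* of T cells at least 5386 in every library. Summed neutrophil markers (5 of 8 in the table) covered 3774 to 9331 CPM (counts scaled to library size) in Y-A, 4952 to 12645 in Y-E and 2807 to 6012 in Y-P. Summed reticulocyte markers (5 of 8) covered 450 to 10988, 92.4 to 4655 and 39.2 to 126 CPM. The upper end in Y-E was a single library, Y-E replicate 6 (written Y-E 6, and likewise for the others). The upper end in Y-A was also 1 library, Y-A 6, with Y-A 5 next at 2066 CPM. Y-E 6 is also the library that the study's tables of mapping and expression leave out. Y-P 2 held the highest *FOS*, *FOSB*, *JUN* and *EGR1* levels of all libraries, but the lowest *FOSL2* level in pregnancy. Values without Y-E 6 or without Y-P 2 are given for many of the results that changed, but not for all.

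The genes lie on 6 chromosomes in the coordinates of the deposited table, whose assembly is given as v101. *FOS* (ENSBGRG00000009096) occupies chromosome 11 from 77126013 to 77129599 on the plus strand, and *FOSB* (ENSBGRG00000022164) chromosome 20 from 62579169 to 62587248 on the minus strand. *FOSL2* (ENSBGRG00000006787) is at 95717060 to 95738648 of chromosome 9, minus strand. *JUN* (ENSBGRG00000024565) is at 94809812 to 94811584 of chromosome 3, plus strand. *ATF3* (ENSBGRG00000021213) spans 71400112 to 71459490 of chromosome 14, minus strand. The other 4 genes share chromosome 8. There *JUNB* (ENSBGRG00000006220) at 11516918 to 11518460 and *IER2* (ENSBGRG00000009223) at 11876397 to 11877065 are both on the plus strand, as is *EGR1* (ENSBGRG00000004094) at 54146033 to 54149496. *JUND* (ENSBGRG00000026238) was listed from 5096102 to 5159978 on the minus strand, a span of 63877 bases that overlaps ENSBGRG00000026221 on the same strand. How reads were divided between these overlapping genes is not stated, so *JUND* values are uncertain.

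The Fos members act mainly as dimers with Jun proteins. *FOS*, the prototype of the family, was measured at 33.0, 34.1, 31.9, 43.5, 54.2 and 71.4 CPM in Y-A 1 to 6. In Y-E 1 to 6 it was at 43.0, 37.4, 39.2, 34.0, 54.3 and 55.8 CPM. In Y-P 1 to 6 it was at 56.5, 1076, 88.5, 92.5, 293 and 448 CPM. Every Y-P library was above every Y-E library, and 5 of 6 were above every Y-A library, with Y-P 1 under Y-A 6. Means were 44.7 ± 15.6 (SD, n = 6), 43.9 ± 9.1 and 342 ± 390 CPM, so the SD in pregnancy exceeded its mean. The log2 fold change of *FOS* was 2.94 (SE 0.55, 7.67-fold) for pregnancy against anestrus and 2.96 (SE 0.55) for pregnancy against estrus. Without Y-P 2 these were 2.13 (4.38-fold) and 2.15 (4.45-fold). With replicate number blocked, the second *FOS* value was 2.36. It was 2.35 with limma on log2(FPKM + 1) and 2.40 with limma on log2(FPKM + 0.1).

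*FOSB*, a close relative of *FOS* that is usually transcribed with it, was less abundant. It lay between 4.99 and 14.9 CPM in Y-A, with a median of 8.52, and between 7.98 and 15.2 CPM in Y-E, with a median of 9.92. In Y-P 1 to 6 *FOSB* was at 16.1, 192, 12.9, 17.8, 18.3 and 55.7 CPM. Only Y-P 3 fell within the range of the other stages. The log2 fold change of *FOSB* was 2.51 (SE 0.57) in Y-P vs. Y-A and 2.24 (SE 0.56) in Y-P vs. Y-E. Without Y-P 2 the *FOSB* values were 1.41 and 1.13, so much of the log2 difference came from 1 library. They were 1.92 and 1.56 with the replicate block, and 1.59 and 1.38 with limma on log2(FPKM + 1). That scale understates the change of genes with low FPKM, and with log2(FPKM + 0.1) they were 1.96 and 1.63.

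*FOSL2*, whose protein Fra-2 is longer-lived than c-Fos, had lower levels in pregnancy. It was at 48.3 to 147 CPM in Y-A (median 99.3), 77.2 to 158 CPM in Y-E (median 136) and 51.3 to 89.3 CPM in Y-P (median 63.9). All Y-P libraries except Y-P 6 were under the lowest Y-E library, Y-E 4. The log2 fold change of *FOSL2* was -0.56 (SE 0.21) in Y-P vs. Y-A and -0.92 (SE 0.21) in Y-P vs. Y-E. Y-P 2, the library with the most *FOS*, had the least *FOSL2* in pregnancy.

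**Figure D1:**
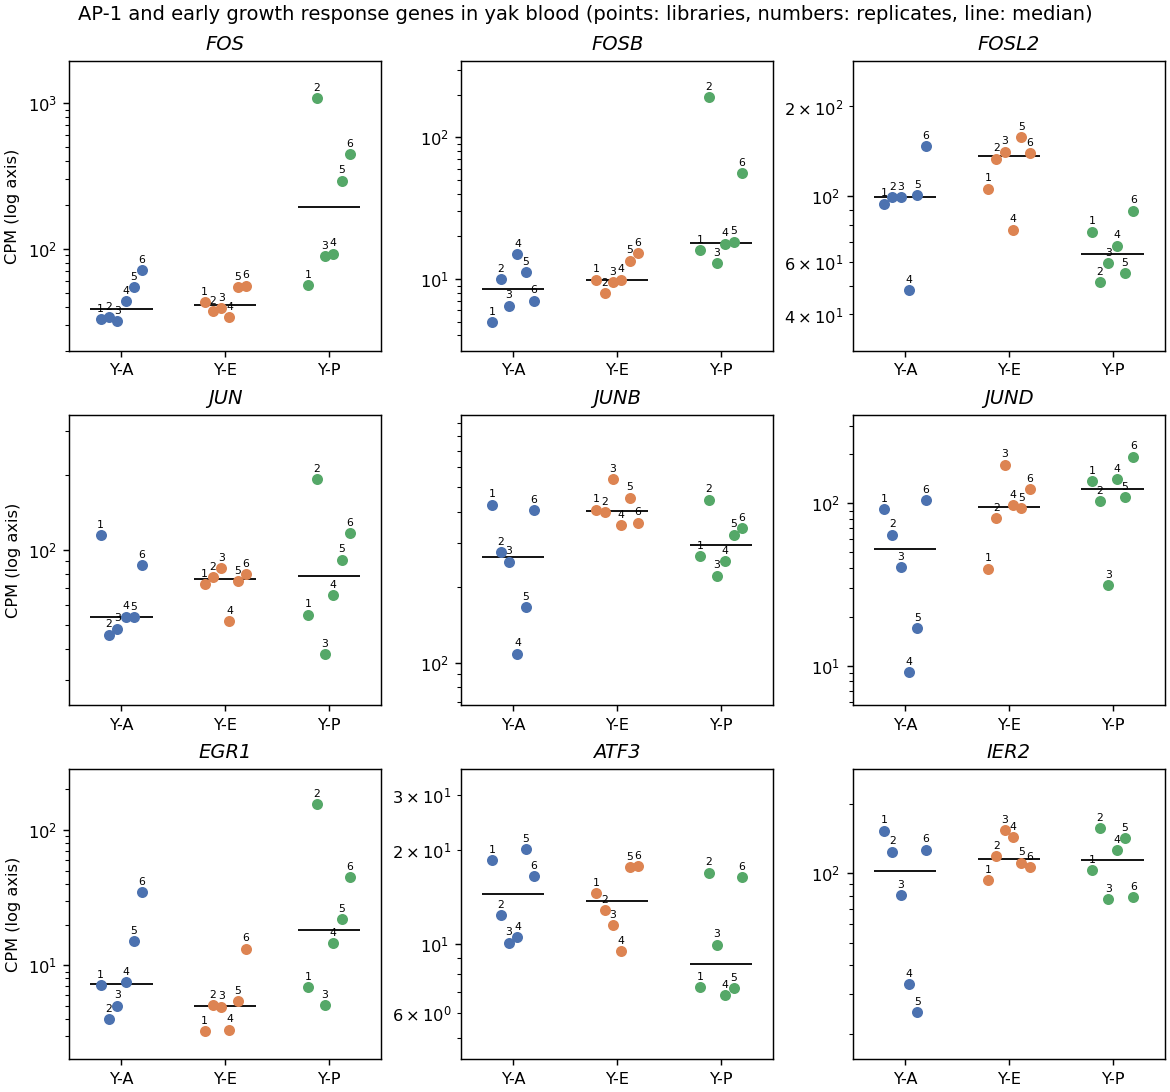
CPM of each of the 9 genes (vertical log axis) in the 6 libraries of Y-A, Y-E and Y-P (horizontal axis). Points are libraries with their replicate numbers and lines are medians; *FOS*, *FOSB* and *EGR1* reach their highest values in Y-P 2 and *FOSL2* its lowest pregnancy value.

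Among the Jun members, which can form dimers with each other as well as with Fos proteins, *JUN* was at 45.7 to 114 CPM in Y-A and 51.6 to 84.6 CPM in Y-E. *JUN* was at 54.9, 193, 38.2, 65.9, 91.4 and 117 CPM in Y-P 1 to 6. Y-P thus held both the highest and the lowest *JUN* value of the 18 libraries, and the groups overlapped. The *JUN* log2 fold changes were 0.48 (SE 0.31) in Y-P vs. Y-A and 0.34 (SE 0.31) in Y-P vs. Y-E, and without Y-P 2 the second fell to about 0. The first ranged from 0.13 to 0.69 on leaving out 1 library.

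*JUNB*, which often restrains c-Jun activity, had the highest median CPM of the 9 genes in each stage. In Y-P its mean of 309 CPM was under the 342 CPM of *FOS*. *JUNB* covered 109 to 426 CPM in Y-A (median 264), 353 to 538 CPM in Y-E (median 402) and 222 to 446 CPM in Y-P (median 294). The *JUNB* log2 fold change was 0.62 (SE 0.26) in Y-E vs. Y-A, 0.18 (SE 0.26) in Y-P vs. Y-A and -0.44 (SE 0.26) in Y-P vs. Y-E. *JUND*, the Jun member most often described as constitutive, covered 9.17 to 105 CPM in Y-A, 39.6 to 173 in Y-E and 31.3 to 194 in Y-P. Its lowest 2 values were Y-A 4 and Y-A 5, at 9.17 and 17 CPM. The *JUND* log2 fold change was 0.89 (SE 0.49) in Y-E vs. Y-A and 1.13 (SE 0.49) in Y-P vs. Y-A, and the groups overlapped in both.

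*EGR1*, a zinc finger factor that serum response factor and ternary complex factors induce together with *FOS*, was at 7.11, 4.02, 5.04, 7.49, 15.2 and 34.9 CPM in Y-A 1 to 6. It was at 3.25, 5.07, 4.96, 3.35, 5.41 and 13.3 CPM in Y-E 1 to 6, and at 6.95, 156, 5.11, 14.5, 21.8 and 44.8 CPM in Y-P 1 to 6. Replicate 6 was the highest of its stage in both Y-A and Y-E and the second highest in Y-P. Replicate 6 also held the most reticulocyte markers in each stage, and their part in *EGR1* was not tested. The *EGR1* log2 fold change was -1.05 (SE 0.72) in Y-E vs. Y-A, 1.76 (SE 0.72) in Y-P vs. Y-A and 2.81 (SE 0.75) in Y-P vs. Y-E. Without Y-P 2 the last 2 were 0.60 and 1.66, and without Y-E 6 the last was 3.24. Without Y-A 6 the first was -0.42 and the second 2.42. Over the fits that left out 1 library the first ranged from -1.48 to -0.42. With the replicate block the last 2 *EGR1* values were 1.16 and 2.14, and with limma on log2(FPKM + 1) the last was 1.87.

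*ATF3*, a stress-induced member that as a homodimer represses transcription, stayed between 6.84 and 20.2 CPM in all 18 libraries. The *ATF3* log2 fold change was -0.08 (SE 0.26), -0.45 (SE 0.26) and -0.37 (SE 0.26) for estrus against anestrus, pregnancy against anestrus and pregnancy against estrus. *IER2*, a small nuclear protein gene of the immediate-early class, was at 25.0 to 153 CPM in Y-A, 93.7 to 155 in Y-E and 77.2 to 158 in Y-P. Y-A 4 and Y-A 5, the libraries with the least *JUND*, also held the least *IER2*, at 33.0 and 25.0 CPM. The *IER2* log2 fold changes were 0.42 (SE 0.34), 0.34 (SE 0.34) and -0.09 (SE 0.34) in the same order, and the last changed sign with the scaling.

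Genes were called in the edgeR quasi-likelihood fit over all genes where the Benjamini-Hochberg adjusted p was under 0.05 and the log2 fold change reached 1 in either direction. In Y-E vs. Y-A, 0 of the 9 genes were called, beside 0.0138% of all tested genes. At an unadjusted p under 0.05 there was 1 of 9, beside 900 of all 14508 tested genes, and DESeq2 and limma also called 0. In Y-P vs. Y-A, 2 of 9 were called, *FOS* and *FOSB*, both higher, beside 1.43% of all tested genes (0.345% higher, 1.09% lower). In Y-P vs. Y-E, 3 of 9 were called, *FOS*, *FOSB* and *EGR1*, all higher, beside 2.67% of all tested genes (0.448% higher, 2.22% lower). Unadjusted p-values under 0.05 numbered 5 of 9 in Y-P vs. Y-A and 4 of 9 in Y-P vs. Y-E, beside 3299 and 4247 of all tested genes. Since the members were chosen from these levels, nothing is read from the counts. The median log2 fold change of the 9 genes was 0.27, 0.48 and 0.24 in the 3 comparisons, beside -0.01, 0.03 and 0.04 for all tested genes. Both pregnancy comparisons use the same Y-P libraries. *EGR1* lost its call without Y-P 2, and *FOSB* lost its call in Y-P vs. Y-A when only these 2 stages were fitted. *FOSL2* passed the adjusted p alone in Y-P vs. Y-E, as did 8.68% of all tested genes in the lower direction, and passed the fold threshold only without Y-E 4 or without Y-P 6 (-1.03).

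**Figure D2:**
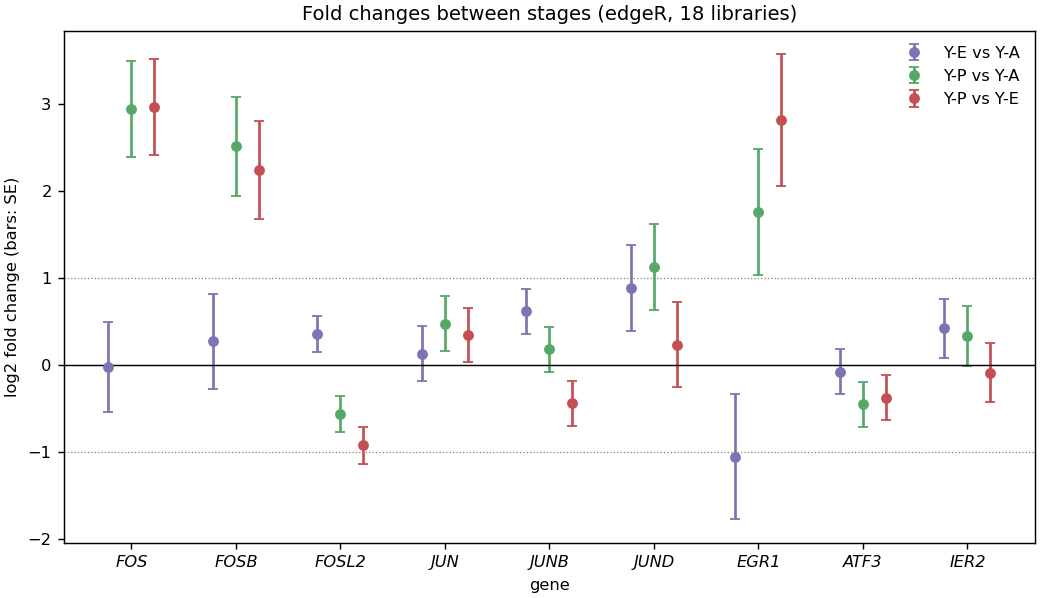
Log2 fold change of each gene (vertical axis, bars are SE from edgeR) in the 3 stage comparisons (colours), with dotted lines at the fold threshold of 1 and -1. *FOS*, *FOSB* and *EGR1* lie above the threshold in both pregnancy comparisons, *FOSL2* lies under 0 in both, and *JUND* exceeds 1 in Y-P vs. Y-A.

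The median spread of these genes was widest in pregnancy, although *FOSL2*, *JUNB*, *JUND* and *IER2* were each more spread in Y-A. The spread was taken as the SD of log2 CPM over the 6 libraries of a stage. The median SD of the 9 genes was 0.58 for Y-A, 0.35 for Y-E and 0.83 for Y-P, beside 0.34, 0.32 and 0.38 over all tested genes. Without Y-P 2 the pregnancy values were 0.63 and 0.35. Within Y-P the SD was 1.82 for *EGR1*, 1.64 for *FOS* and 1.50 for *FOSB*, which exceeded those of 98.4%, 97.3% and 96.0% of tested genes. The SD of *JUND* was 0.91, of *JUN* 0.83 and of *ATF3* 0.60. *IER2* at 0.44, *JUNB* at 0.36 and *FOSL2* at 0.30 were close to the median of all genes. *JUND*, *EGR1* and *IER2* were also widely spread in Y-A, with SDs of 1.40, 1.14 and 1.10.

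The order of the libraries within pregnancy was nearly shared by 4 genes. *FOSB*, *JUN* and *EGR1* all ranked the libraries Y-P 2, 6, 5, 4, 1 and 3 from high to low, and *FOS* differed only in placing Y-P 3 before Y-P 1. Y-P 2 was the highest pregnancy library for 7 of 9 genes. Y-P 6 was first or second for 8 of 9, and Y-P 3 was lowest for 6 of 9. Y-P 2 exceeded the next Y-P library 2.40-fold for *FOS*, 3.44-fold for *FOSB*, 3.49-fold for *EGR1* and 1.65-fold for *JUN*, but 1.30-fold for *JUNB* and 1.10-fold for *IER2*. Leaving Y-P 2 aside, the median of the other 5 pregnancy libraries stood at 2.25 times the median of the 12 Y-A and Y-E libraries for *FOS*, 1.79 times for *FOSB* and 2.78 times for *EGR1*. The same ratio was 0.892 for *JUN*, 0.70 for *JUNB* and 0.66 for *FOSL2*.

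**Figure D3:**
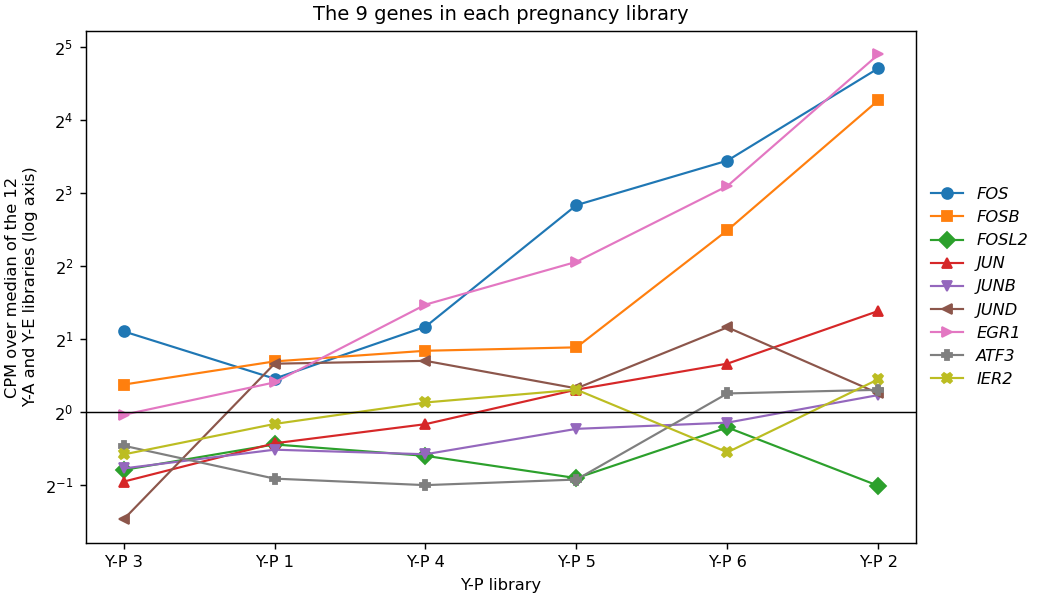
CPM in each Y-P library divided by the median of the 12 Y-A and Y-E libraries (vertical log axis), 1 line per gene, with the libraries ordered by *EGR1*. The lines of *FOS*, *FOSB* and *EGR1* climb to Y-P 6 and Y-P 2, *JUN* climbs less, and *FOSL2* stays under 1 in all 6 libraries.

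Blood cell markers were set beside *FOS* within pregnancy. Summed neutrophil markers were at 3693, 3890, 6012, 2807, 3400 and 3100 CPM in Y-P 1 to 6. Spearman's rho with *FOS* over these 6 libraries was -0.14 for neutrophil, 0.31 for monocyte, 0.60 for T cell, -0.31 for B cell, 0.49 for NK cell, 0.26 for eosinophil and -0.26 for platelet markers. It was 0.77 for reticulocyte markers, whose sums in Y-P were at most 126 CPM, and 0.37 for heat shock genes (3 of 7 in the table). Between stages, 3 of 5 neutrophil markers were called lower in Y-P vs. Y-E (4 by DESeq2) and 0 of 5 in Y-P vs. Y-A (1 at an unadjusted p under 0.05, and 0 by DESeq2). Platelet markers were called lower for 3 of 4 genes in both pregnancy comparisons with either tool. Reticulocyte markers were called lower for 5 of 5 in Y-P vs. Y-A and 4 of 5 in Y-P vs. Y-E by edgeR, and for 3 of 5 in each by DESeq2. All 4 platelet and all 5 reticulocyte genes had negative log2 fold changes in both comparisons (edgeR). Of all tested genes, 1.09% were called lower against Y-A and 2.22% against Y-E by edgeR. By DESeq2 these were 194 and 371 genes. T cell, B cell, NK cell, monocyte, eosinophil and heat shock genes had 0 called in each comparison by edgeR and by DESeq2. At an unadjusted p under 0.05, T cell markers numbered 6 of 6 and 5 of 6 in the pregnancy comparisons, and the others at most 3, beside 3299 of all 14508 tested genes against Y-A and 4247 against Y-E. At the adjusted p alone, 2 of 6 T cell markers were higher against Y-A and 3 of 6 against Y-E, with 0 lower. Of all tested genes, 322 and 837 were higher in this way. Summed T cell markers were at 1160 to 1922 CPM in Y-P beside 964 to 1196 in Y-A and 964 to 1158 in Y-E. Among defining markers, *KLRF1*, *GP1BA* and *SLC4A1* had 0 counts in 3 libraries each and *HBM* in 1. The part of cell composition in the levels of the AP-1 genes was not tested.

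Across all libraries the genes fell into loosely covarying groups. Spearman correlations were computed on deviations from the stage means over 18 libraries, which share depth and cell composition. The median over the 6 pairs of *FOS*, *FOSB*, *EGR1* and *JUN* was 0.73 (range 0.36 to 0.90), with *FOS* and *EGR1* closest. The median over the 3 pairs of *JUNB*, *JUND* and *IER2* was 0.67 (0.66 to 0.73). Between both sets the median was 0.12, with a range from -0.27 to 0.71, and over all 36 pairs it was 0.36. The sets were formed after the values were seen. *JUN* and *JUNB* had the highest value between the sets. Without Y-P 2 the medians were 0.63 within the first set, 0.75 within the second and 0.15 between them. The first set then ranged from 0.06 to 0.79, with *FOSB* and *JUN* falling from 0.36 to 0.06.

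The genes of the whole table most like *FOS* in these deviations were *FKBP5* at 0.89, *AKAP7* at 0.81, ENSBGRG00000011058 at 0.78, *INTS10* at 0.76 and *PLEK2* at 0.75, among 14499 compared. *FKBP5* encodes an immunophilin of the Hsp90 chaperone machinery. Over the undivided 18 libraries the nearest were *METTL21A* at 0.87, ENSBGRG00000017028 and *SLC22A5* at 0.86, ENSBGRG00000016166 at 0.86 and *CLP1* at 0.85. For *EGR1* the nearest by deviations were ENSBGRG00000017028 at 0.85, *CHST11* at 0.84, *FKBP5* at 0.80, ENSBGRG00000010860 at 0.79 and *ARFGEF3* at 0.78. Over the undivided libraries the genes near *EGR1* included a U6 gene (ENSBGRG00000013756) at 0.82, then *HSPA5*, ENSBGRG00000017028 and *PRKCH* at 0.77 to 0.76. For *JUN* they were *HNRNPUL1* at 0.81, *CHFR*, *TRIM3*, *TRIB1* at 0.79 and *FES* by deviations. Undivided, *JUN* was closest to ENSBGRG00000015698, *DUSP1*, *TPGS1*, *ZNF408* and *GNB1L*, at 0.77 to 0.75.

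Levels between genes were compared as FPKM, which is scaled by exon length. *JUNB* and *IER2* led in each stage, with medians of 153 and 128 FPKM in Y-A, 218 and 139 in Y-E, and 190 and 172 in Y-P. *JUN* followed with 39.7 and 55.8 FPKM in Y-A and Y-E. In Y-P the median of *JUND* was under that of *JUN* as FPKM (28.0 and 69.2) but above it as CPM (123 and 78.7). Their order therefore depends on the gene lengths used, and *JUND* values are uncertain as given above. *FOS* stood at rank 5 in Y-A with 17.7 FPKM, rank 6 in Y-E with 17.6 and rank 3 in Y-P with 98.6. *FOSB* was last in Y-A and Y-E, at 1.81 and 2.16 FPKM, and *ATF3* was last in Y-P at 3.61. Neighbours in this order had overlapping ranges throughout Y-A and Y-P. In Y-E they were separate between *JUNB* and *IER2*, *IER2* and *JUN*, *FOSL2* and *JUND*, and *FOS* and *ATF3*.

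The makeup of the Fos transcripts differed in pregnancy. *FOSL2* made up a median of 65.5% of the FPKM summed over *FOS*, *FOSB* and *FOSL2* in Y-A and 67.0% in Y-E, but 24.2% in Y-P. *FOS* made up 26.8% to 47.6% in Y-A, 24.0% to 32.7% in Y-E and 44.0% to 88.9% in Y-P, with medians of 32.3%, 29.4% and 71.2%. In Y-P 2 *FOSL2* was down to 3.58%, while in Y-P 1 it still held 50.1%. Only Y-P 1 had a *FOS* share under the highest Y-A share, that of Y-A 4. In the Jun family the median *JUNB* share was 70.8%, 76.2% and 65.6%, which also depends on the gene lengths used and on the uncertain *JUND* values. Fos transcripts summed to a median of 0.29, 0.22 and 0.49 of Jun transcripts, and they exceeded them only in Y-P 2, at 1.31.

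**Figure D4:**
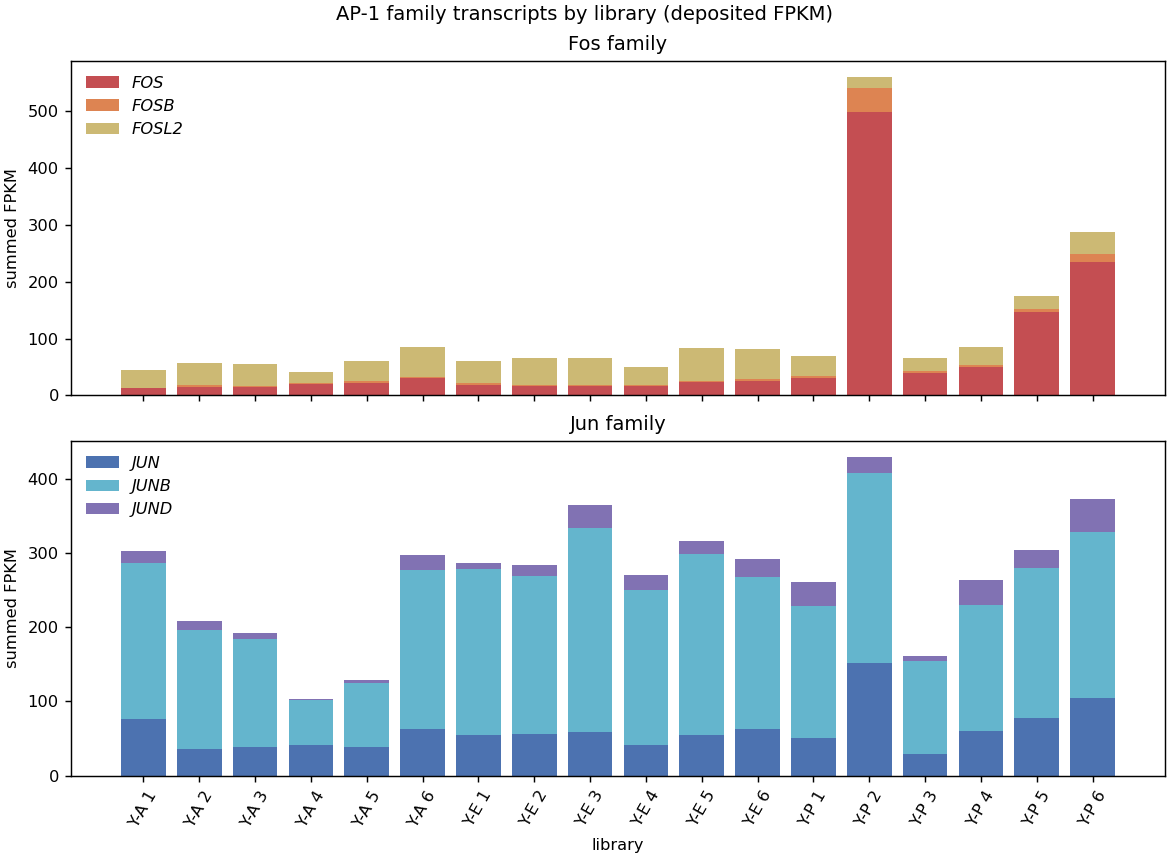
Deposited FPKM of the Fos family (top) and Jun family (bottom) in each of the 18 libraries, stacked by gene on linear axes. *FOS* makes up most of the tall bars of Y-P 2, Y-P 5 and Y-P 6, while *JUNB* is the largest part of every Jun bar.

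Other genes of the pathway came from 4 lists of textbook genes, 92 in all, of which 78 were in the table and 72 were tested. The lists were written with earlier results of these data known, so counts within them are not independent of the data. In Y-E vs. Y-A the edgeR test called 0 of 72, and DESeq2 called 1. Unadjusted p-values under 0.05 numbered 0 of 10 other AP-1 and related bZIP genes, 8 of 28 other immediate-early genes, 7 of 24 upstream kinases and factors and 1 of 10 AP-1 target genes, beside 900 of all 14508 tested genes. *MMP9*, a matrix metalloproteinase stored in neutrophil granules, had a log2 fold change of 1.46 there with adjusted p = 0.28 (edgeR), and it was called without Y-E 6 and by DESeq2. In Y-P vs. Y-A 4 were called, and in Y-P vs. Y-E 5, beside the 1.43% and 2.67% of all genes given above.

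Of the other immediate-early genes, 2 of 28 were called higher and 0 lower in both pregnancy comparisons, while 17 of 28 had a negative log2 fold change in each. At the adjusted p alone, 3 were higher and 0 lower in Y-P vs. Y-A, the third being *DUSP2* at 0.85. Against Y-E 2 were higher and 4 lower, beside 8.68% of all tested genes in the lower direction. The 4 were *CSRNP1* (-0.63), *IER3* (-0.69), *MCL1* (-0.48) and *ZFP36* (-0.61), and apart from *MCL1* these genes and *DUSP2* are named after their values were seen. *RGS1*, an inhibitor of G protein signalling that activated lymphocytes express, was at 5.07 to 14.0 CPM in Y-A and 4.64 to 12.2 CPM in Y-E. In Y-P 1 to 6 *RGS1* was at 19.7, 133, 27.7, 13.1, 16.1 and 154 CPM. All Y-P libraries were above all Y-E libraries, and only Y-P 4 was within the Y-A range. Its log2 fold change was 2.85 (SE 0.56, adjusted p = 0.00784) in Y-P vs. Y-A and 2.84 (SE 0.56, adjusted p = 0.0029) in Y-P vs. Y-E in the edgeR fit, and it was called in all 18 fits that left out 1 library. Without Y-P 2 the *RGS1* values were 2.46 and 2.44. *DUSP1*, the phosphatase that switches off MAP kinases, was at 238 to 426 CPM in Y-A and 281 to 419 CPM in Y-E. *DUSP1* was at 422, 2077, 273, 377, 440 and 1602 CPM in Y-P 1 to 6. Its log2 fold change was 1.55 (SE 0.40, adjusted p = 0.0307) in Y-P vs. Y-A and 1.34 (SE 0.40, adjusted p = 0.0304) in Y-P vs. Y-E. The *DUSP1* call was not stable, since it was kept in 11 of 18 fits that left out 1 library. It was lost without any 1 of Y-A 2 to Y-A 6 in the first comparison (adjusted p = 0.0520 to 0.0604) and of Y-E 1 to Y-E 5 in the second (0.0505 to 0.0622). It was also lost without Y-P 2 (1.07 and 0.86, adjusted p = 0.0812 and 0.101) and without Y-P 6 (1.28 and 1.07). With the replicate number as a block, adjusted p for *DUSP1* was 0.0632 and 0.0768, and with only the 2 stages fitted it was 0.0787 and 0.0610 (edgeR).

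Relatives of *EGR1* did not pass. *EGR2* had log2 fold changes of 0.71 against Y-A and 0.94 against Y-E in pregnancy, with adjusted p = 0.32 and 0.13 (edgeR), and was at 15.5 CPM in Y-P 2 against a median of 3.75 in the other Y-P libraries. *NR4A1*, an orphan nuclear receptor induced by similar stimuli, was at 8.43 CPM in Y-P 2, beside a median of 8.55 CPM over the Y-A and Y-E libraries and 4.66 CPM over the other 5 Y-P libraries. It was not called in the reported fit, but was called in Y-P vs. Y-E without both Y-E 6 and Y-P 2, a choice made after seeing the data. *EGR2* and *NR4A1* were chosen after their values were seen. The most abundant genes of this list, *MCL1* and *RGS2*, had log2 fold changes of 0.39 and 0.39 in Y-E vs. Y-A, with adjusted p = 0.58 and 0.90 (edgeR).

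The called textbook targets of AP-1 were all lower in pregnancy, 2 of 10 against Y-A and 3 of 10 against Y-E. Of all tested genes, 1.09% and 2.22% were called lower, more than were called higher. Among the 10 targets, 5 had a positive and 5 a negative log2 fold change against Y-A, and 3 and 7 against Y-E. *PTGS2*, the inducible prostaglandin synthase, fell by 1.25 on the log2 scale in Y-P vs. Y-A (SE 0.28, adjusted p = 0.0176, edgeR) and by 1.15 in Y-P vs. Y-E (SE 0.28, adjusted p = 0.0110). *PTGS2* was at 90.7 to 227 CPM in Y-A, 81.8 to 252 in Y-E and 37.8 to 97.0 in Y-P. *IL1B*, an inflammatory cytokine of monocytes and neutrophils, was at 175 to 476 CPM in Y-A, 182 to 382 CPM in Y-E and 84.6 to 167 CPM in Y-P. No Y-P library overlapped with either other stage for *IL1B*. The log2 fold change of *IL1B* was -1.004 (SE 0.24, adjusted p = 0.0208) in Y-P vs. Y-A and -1.28 (SE 0.24, adjusted p = 0.00199) in Y-P vs. Y-E. The first value sat at the fold threshold and its call was lost without Y-A 5 (-0.76), Y-P 2 (-0.90) or Y-P 6 (-0.92), and with the replicate block (-0.98). *MMP9* fell by 1.29 in Y-P vs. Y-E (SE 0.36, adjusted p = 0.0210), from 51.3 to 305 CPM in Y-E to 36.2 to 130 CPM in Y-P, and lost its call without Y-E 3 (-1.03, adjusted p = 0.0637). *PTGS2* lost its call in Y-P vs. Y-E without Y-E 2 (-0.94). The lowest Y-P value of *IL1B*, *PTGS2* and *MMP9* was in each case that of Y-P 2. Neutrophil markers were lower in the same comparison, as given above, and their part in these values was not tested.

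**Figure D5:**
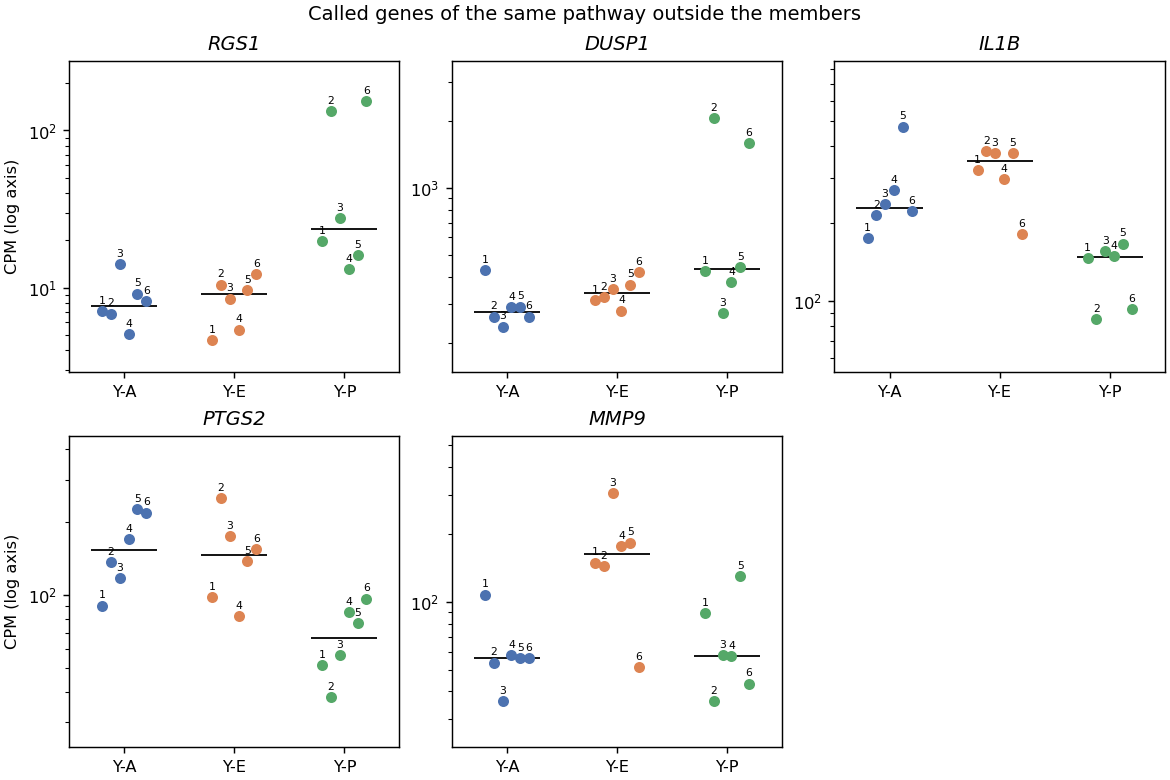
CPM (vertical log axis) of the 5 called pathway genes outside the 9 members in the 6 libraries of each stage (horizontal axis), with replicate numbers and medians. *RGS1* and *DUSP1* are highest in Y-P 2 and Y-P 6, where *IL1B* is lowest.

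None of the other AP-1 and related bZIP genes was called in any comparison (0 of 10 by edgeR and by DESeq2, while at an unadjusted p under 0.05 there were 0 for estrus against anestrus, 3 for pregnancy against anestrus and 2 for pregnancy against estrus, beside 900, 3299 and 4247 of all 14508 tested genes). The most abundant were *BACH1*, a heme-sensing repressor, and *ATF2*, a partner of c-Jun. *BACH1* had log2 fold changes of 0.34, -0.49 and -0.83 in that order, with adjusted p = 0.90, 0.15 and 0.0102 (edgeR), the last under the fold threshold. *ATF2* was between 53.2 and 76.9 CPM in all libraries, with log2 fold changes of -0.16, -0.05 and 0.11. Upstream kinases and factors also had 0 of 24 called in each comparison by edgeR and DESeq2, with 7, 6 and 9 at an unadjusted p under 0.05, beside the same numbers of all genes. In Y-P vs. Y-E 5 of them passed the adjusted p alone, all lower. They included *MAP2K2*, *MAP2K7* and *MAPKAPK2*, which are named after their values were seen. Of the 2 most abundant, *RPS6KA1*, a ribosomal S6 kinase, had a log2 fold change of -0.43 there (adjusted p = 0.00663, edgeR), and *MRTFA*, a coactivator of serum response factor, one of -0.11 (adjusted p = 0.76, edgeR).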

How the data were processed

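RNA-seq of 18 blood libraries was re-analysed. The authors trimmed reads with cutadapt 1.9, aligned them with HISAT2 2.2.1 to the yak genome (v101), assembled transcripts with StringTie 2.1.6 and gffcompare, and deposited FPKM per gene. The authors also deposited whole-number counts per gene. How these were counted, and with which strand setting, is not given in the sources used here, and the submitters' notes also name edgeR and DESeq2. RNA was poly(A)-selected and libraries were stranded.

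The members and gene lists were chosen with earlier results of these data known. Counts were tested with edgeR 4.0.16 (R 4.3.3; TMM, filterByExpr, quasi-likelihood, stage only, all 18 libraries, two-sided, Benjamini-Hochberg over 14508 genes). CPM used TMM library sizes, and log2 CPM a prior count of 2. SE comes from the edgeR fit. The code was tested on simulated data. Alternatives used DESeq2 1.42.0, limma 3.58.1 on log2(FPKM + 1) or log2(FPKM + 0.1), other scaling or filters, and left-out libraries. No 2 libraries of a stage agreed within counting noise (chi-square per degree of freedom at least 30.1).

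Replicate numbers were taken to mark the 6 tracked cows, which the sources do not state outright. The reported fit did not use them, so its SEs and adjusted p-values treat libraries of the same cow as independent. The replicate block is the alternative that uses them. Deviations of same-numbered libraries correlated at 0.110 to 0.515 between Y-E and Y-A (6 of 6 over 0.1), -0.05 to 0.37 between Y-P and Y-A (4 of 6) and -0.05 to 0.40 between Y-P and Y-E (4 of 6). In the same order, the same-numbered library was the best match among those of the second stage in 6, 4 and 4 of 6 cases. Pathway genes were named by a fixed rule: up to 3 called genes per list and direction, otherwise the 2 of highest mean CPM, and for *FOS*, *JUN* and *EGR1* the 5 nearest genes. Marker lists for 8 blood cell types and heat shock genes were summed as CPM. Promoter sequences were not analysed here, and some genes that the rule names are not reported here.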

Additional observations from a re-analysis of the deposited data

Results flagged for a closer look

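Each of the 9 genes was searched, in each stage, for a library that stood apart, by the gap from the highest or lowest library to its neighbour over the range of the stage (Dixon's criterion at 95%). Of 27 groups of 6 libraries, 5 were marked. Chance marks about 1 in 20 independent groups of normally distributed values, or 1.35 of 27. The criterion was applied to CPM without logs, so this rate may not hold here. These groups also share libraries, the genes covary, and they were picked with the scatter in pregnancy known, so nothing is read from the count. *FOSB* was at 192 CPM in Y-P 2, with a gap of 0.76 of the range. *EGR1* was marked in each stage: Y-P 2 held 156 CPM (0.74 of the range), Y-A 6 held 34.9 CPM (0.64) and Y-E 6 held 13.3 CPM (0.79). The low *JUN* value of Y-E 4, 51.6 CPM, was also marked (0.64). *FOS* in Y-P 2, at 1076 CPM beside 448 CPM in Y-P 6, was under the criterion and was not marked.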

How the results depend on the processing

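Of the 27 log2 fold changes of single members, 23 kept their sign under all alternatives, and the sign held in 713 of 729 values. The exceptions were *FOS* (-0.02) and *ATF3* (-0.08) in Y-E vs. Y-A, *IER2* (-0.09) in Y-P vs. Y-E, and *JUN* there, at 0.34 but about 0 without Y-P 2, with the sign kept in 26 of 27 values. *FOS* was called in both pregnancy comparisons in all 27 fits. These fits reuse the libraries whose levels were known when the members were chosen. Nothing is therefore read from this count or from the member counts below. All genes called in Y-E vs. Y-A numbered 2 in the reported fit, 11 with the replicate block, 9 with DESeq2, 14 without both Y-E 6 and Y-P 2 (chosen after seeing the data), and 2 to 18 when 1 library was left out (4 without Y-A 1, 18 without Y-E 6). In Y-P vs. Y-A they numbered 208, 133 with limma on log2(FPKM + 1), and 110 to 229 on leaving out 1 library (110 without Y-P 2, 134 without Y-P 4, 136 without Y-P 5). In Y-P vs. Y-E they numbered 387, 154 with that limma fit, and 289 to 476. Members called in Y-P vs. Y-A were 2, 1 when only the 2 stages were fitted and 2 in every fit without 1 library, and 3 with limma on log2(FPKM + 1), which added *JUND*. In Y-P vs. Y-E they were 2 to 4. Pathway genes called in Y-E vs. Y-A were 0, but 1 (*MMP9*) with DESeq2, without Y-E 6, and without both libraries (0 to 1 on leaving out 1). In Y-P vs. Y-A they were 4, but 2 with the replicate block, 2 without both libraries and 2 to 5 on leaving out 1 (2 without Y-A 5, Y-P 2 or Y-P 6). In Y-P vs. Y-E they were 3 to 7 around 5 (3 without Y-E 2 or Y-E 3). The replicate block changed no other count of members or pathway genes by over 1.5 times. The median pair correlation of the members was 0.25 to 0.44 and their median Y-P spread 0.63 to 0.92 on leaving out 1 library. Scaling by library size only moved the median log2 fold change of all genes from 0.03 to 0.19 in Y-P vs. Y-A and from 0.04 to 0.18 in Y-P vs. Y-E. With it 55.4% of the genes called in Y-P vs. Y-A were higher, 63.2% and 68.9% with limma on FPKM, against 24.0% in the reported fit. In Y-P vs. Y-E these were 41.1%, 47.4% and 53.9% against 16.8%. Under these scalings *IL1B* in Y-P vs. Y-A and *PTGS2* in Y-P vs. Y-E were no longer called. The cause was not tested. Depth did not limit the members, whose lowest count was 103 (*EGR1* in Y-E 1).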
